A study of Mus musculus with 5 samples.

Results

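The genes described here keep naive lymphocytes alive, quiet and moving between blood and lymphoid organs: Il7r, S1pr1, Klf2, Satb1, Lef1, Tcf7 and Ets1. They were taken from the values of whole-blood expression arrays as every probe set (a group of short probes read together as 1 value for a transcript) whose annotation gives exactly 1 gene symbol and whose symbol is on that list. The rule found 15 probe sets for 6 of the 7 genes, out of 45101 probe sets in all. Tcf7 had no probe set under its symbol in the annotation used here and was not analysed here. Blood came from adult female first-generation mice of 2 crosses, drawn by cardiac puncture under Avertin anaesthesia. The first cross, (AKR/J x FVB/NJ)F1, has 2 arrays (AKRxFVB F1), and the second, (DBA/2J x FVB/NJ)F1, has 3 (DBAxFVB F1). Every animal thus carries 1 FVB/NJ genome, and the crosses differ in the other parent. The study asked for basal differences in blood gene expression between these genotypes. No treatment, allele or transgene is given for either cross, and the labels do not say whether an array holds 1 animal or a pool.

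Naive T cells depend on interleukin 7, which they read through the receptor chain encoded by Il7r. They leave lymph nodes by following sphingosine 1-phosphate with the receptor encoded by S1pr1, whose transcription in T cells is driven by the Krüppel-like factor Klf2. Lef1 and Tcf7 encode related DNA-binding proteins that act in T cell development and in the naive and memory states, Satb1 encodes a chromatin organiser that is abundant in thymocytes and T cells, and Ets1 encodes a transcription factor needed for the survival and normal function of T cells and also used in B and natural killer cells. Whole blood mixes all of these with myeloid cells, platelets and red cell precursors. In such bulk samples, fewer cells of a type and less RNA per cell cannot be told apart.

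For Il7r and Klf2, the genes with a lower group mean in DBAxFVB F1 for which the RefSeq table used here lists 1 gene start, the sequence around that start is shown so that the motifs of the factors among the members can be read in it. Each runs from 250 bases before to 50 bases after the start, on the build GRCm38.p6. Capitals mark the letters GGAA, the core bound by ETS factors, CACCC, bound by Krüppel-like factors, and CTTTGA, bound by Lef1 and Tcf7, each on either strand. No 2 motifs overlap in these windows. The Il7r window is chr15:9529827-9530126 on the minus strand and the Klf2 window is chr8:72318812-72319111 on the plus strand.
Il7r: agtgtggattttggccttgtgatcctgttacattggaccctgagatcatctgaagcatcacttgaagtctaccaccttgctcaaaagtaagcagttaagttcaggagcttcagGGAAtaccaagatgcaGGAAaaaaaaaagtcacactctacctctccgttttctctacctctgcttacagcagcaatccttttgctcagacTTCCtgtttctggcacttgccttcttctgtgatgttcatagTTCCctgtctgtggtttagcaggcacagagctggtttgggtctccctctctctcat
Klf2: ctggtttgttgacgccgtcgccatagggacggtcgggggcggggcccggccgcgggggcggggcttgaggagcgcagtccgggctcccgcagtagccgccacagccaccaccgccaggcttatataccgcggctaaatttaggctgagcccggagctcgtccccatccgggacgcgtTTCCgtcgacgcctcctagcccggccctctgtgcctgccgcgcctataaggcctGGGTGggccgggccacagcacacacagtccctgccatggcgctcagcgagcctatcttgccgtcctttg
The Il7r window held GGAA at 4 places and neither of the other motifs. The Klf2 window held GGAA at 1 place and CACCC at 1 place. Across the table, GGAA was present in 96.0% of all 32851 windows of this length, CACCC in 57.5% and CTTTGA in 16%, so these matches describe the letters only. The table had 13 windows for Il7r, Klf2, Lef1, Satb1 and Tcf7, of which 13 held GGAA, 11 held CACCC and 1, of Lef1, held CTTTGA. Ets1 and S1pr1 had no entry.

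The values are on a log2 scale, where a difference of 1 is a fold of 2. Differences are DBAxFVB F1 minus AKRxFVB F1, so a negative value means lower in DBAxFVB F1, and they are followed by the standard error (SE) from limma, a linear model fitted to all tested probe sets. The array medians ran from 2.49 to 2.54, and the precision is limited by the 5 arrays. DBAxFVB F1 array 3 stood apart: its 18 hybridisation controls had a median of 7.99 against 10.01 to 10.12 on the other arrays, and its correlation with them over tested probe sets was 0.91 to 0.93, against 0.94 to 0.97 among the others. The 3' minus 5' difference of the control probe sets, a sign of RNA quality, was also highest on it, at 1.32 for Actb and 1.33 for Gapdh. It was 1.22 and 1.03 for Actb in AKRxFVB F1, against 0.82 and 0.68 for the other DBAxFVB F1 arrays, and for Gapdh 1.04 and 0.73 against 0.62 and 0.58. The part of RNA quality in the members' values was not tested. Each difference of a member is therefore also given without that array where it moved by more than 1.5 times.

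Ets1 showed the widest separation of the crosses among the members. Its probe set 1452163_at read 6.66 and 6.37 in AKRxFVB F1 and 5.25, 4.91 and 4.91 in DBAxFVB F1. Probe set 1426725_s_at read 7.95 and 7.58 against 6.46, 6.24 and 6.11. On both probe sets the crosses did not overlap and AKRxFVB F1 was the higher, with a gap of 1.12 between the nearest arrays. The difference was -1.49 ± 0.27 (SE) for 1452163_at, a fold of 2.81, with a limma adjusted p of 0.152 (unadjusted p = 0.000638). It was -1.50 ± 0.31 for 1426725_s_at, a fold of 2.82, with a limma adjusted p of 0.177. Neither passed the threshold of 0.05 over all 22519 tested probe sets. Both carry the same source accession in the annotation, so they are not independent measures of the gene.

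The other Ets1 pair, which shares another source accession, gave smaller differences. Probe set 1422028_a_at read 3.52 and 3.61 against 3.44, 3.33 and 3.27, and 1422027_a_at read 4.03 and 3.92 against 3.98, 3.85 and 3.69. The crosses did not overlap on the first and overlapped on the second. The differences were -0.22 ± 0.16 (limma adjusted p = 0.665) and -0.14 ± 0.19 (limma adjusted p = 0.820). The 4 probe sets of Ets1 therefore had the same sign and unequal sizes. Without DBAxFVB F1 array 3 the difference of 1422027_a_at was -0.06.

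Il7r, the interleukin 7 receptor chain, was lower in DBAxFVB F1 on both of its probe sets, without passing the test. Probe set 1448576_at read 3.63 and 3.80 in AKRxFVB F1 and 2.79, 3.11 and 2.24 in DBAxFVB F1. Probe set 1448575_at read 5.17 and 5.66 against 4.98, 4.76 and 4.25. The crosses did not overlap on either, and DBAxFVB F1 array 3 was the lowest array on both. The differences were -1.00 ± 0.25 (limma adjusted p = 0.244) and -0.75 ± 0.30 (limma adjusted p = 0.444). The first ranged from -1.20 to -0.76 and the second from -1.00 to -0.50 when 1 array was left out, the smallest of the latter without AKRxFVB F1 array 2.

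S1pr1, the receptor that guides exit from lymph nodes, did not separate the crosses. Its probe set 1423571_at read 3.64 and 3.06 in AKRxFVB F1 and 3.35, 2.80 and 3.58 in DBAxFVB F1. The highest and the next highest array belonged to different crosses. The difference was -0.10 ± 0.27 (limma adjusted p = 0.914), and its sign turned when AKRxFVB F1 array 1 was left out (0.19) or DBAxFVB F1 array 2 (0.12). Leaving out DBAxFVB F1 array 3 gave -0.27.

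Klf2, the factor that drives S1pr1 in T cells, was lower on average in DBAxFVB F1 but overlapped. Probe set 1448890_at read 6.07 and 5.04 against 4.39, 4.28 and 5.07. DBAxFVB F1 array 3 lay 0.04 above AKRxFVB F1 array 2, which was the whole overlap. The difference was -0.97 ± 0.38 (limma adjusted p = 0.437). Leaving out AKRxFVB F1 array 1 gave -0.46, and leaving out the other array of that cross gave -1.49, so the size depended on which of them was kept. Klf2 and S1pr1 both read highest on AKRxFVB F1 array 1.

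Satb1, the chromatin organiser, varied most from array to array among the members. Probe set 1416007_at read 3.99 and 5.42 in AKRxFVB F1 and 4.37, 2.95 and 2.63 in DBAxFVB F1. Probe set 1416008_at read 3.59 and 4.94 against 3.70, 2.44 and 1.74. On both, AKRxFVB F1 array 2 was the highest and DBAxFVB F1 arrays 2 and 3 the lowest, while DBAxFVB F1 array 1 lay above AKRxFVB F1 array 1. The standard deviation was 1.01 (n = 2) and 0.93 (n = 3) for the first probe set and 0.95 and 0.99 for the second. The differences were -1.38 ± 0.57 (limma adjusted p = 0.459) and -1.64 ± 0.58 (limma adjusted p = 0.398). Without AKRxFVB F1 array 2 they were -0.67 and -0.96, and without AKRxFVB F1 array 1 they were -2.10 and -2.31. This pair shares a source accession.

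The remaining Satb1 probe sets, from 3 other accessions, differed less. Probe set 1436182_at read 3.28 and 3.77 against 3.29, 2.45 and 3.01, a difference of -0.61 ± 0.27 (limma adjusted p = 0.502). Leaving out AKRxFVB F1 array 2 gave -0.36, and leaving out DBAxFVB F1 array 2 gave -0.37. Probe set 1439449_at read 3.24 and 3.54 against 3.74, 3.41 and 2.99, with a difference of -0.0092 ± 0.24 (limma adjusted p = 0.993) that was 0.19 without DBAxFVB F1 array 3. The highest value of the first belonged to AKRxFVB F1 and that of the second to DBAxFVB F1. Probe set 1439315_at read 1.90 and 2.30 against 2.46, 2.01 and 2.28. It lay below the filter on low values, a mean of 2.51, and was not tested.

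Lef1, the DNA-binding partner of beta-catenin, had 1 tested probe set and 1 near the lower end of the scale. Probe set 1454734_at read 3.57 and 3.51 in AKRxFVB F1 and 3.71, 2.79 and 2.93 in DBAxFVB F1. The AKRxFVB F1 arrays lay 0.05 apart, and DBAxFVB F1 array 1 was above both while the other two were below. The difference was -0.40 ± 0.27 (limma adjusted p = 0.655), and it was -0.68 without DBAxFVB F1 array 1 and -0.22 without DBAxFVB F1 array 2. Probe set 1421299_a_at read between 1.72 and 2.06 on the 5 arrays, below the filter, and was not tested.

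**Figure D1:**
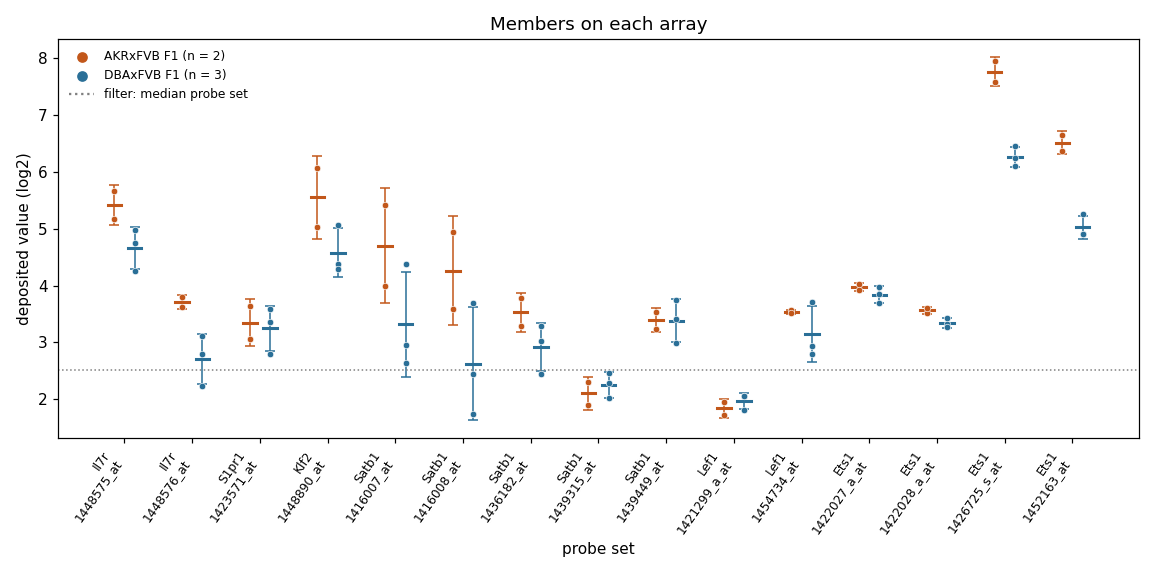
The log2 value of each of the 15 member probe sets on each array, with the mean and the standard deviation of AKRxFVB F1 (n = 2) and DBAxFVB F1 (n = 3); the dotted line is the filter at 2.51. The crosses are 1.12 apart on 2 Ets1 probe sets, overlap on every Satb1 probe set, and 2 probe sets lie below the line.

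Across the members, 13 of 15 probe sets passed the filter and 0 of these 13 passed the test. Over all 22519 tested probe sets limma called 0 (0% of them), the smallest adjusted p was 0.131, and 2337 (10.4%) had an unadjusted p below 0.05. All 13 tested member probe sets had a lower mean in DBAxFVB F1, where 43.2% of tested probe sets did. At an unadjusted p below 0.05, 7 of the 13 were lower, against 6.79% of all tested probe sets. These were 2 probe sets each of Ets1, Il7r and Satb1, and the probe set of Klf2. Without DBAxFVB F1 array 3 there were 5, without AKRxFVB F1 array 2 there were 4, and without DBAxFVB F1 array 2 there were 3. In 5 of the 13, all DBAxFVB F1 arrays lay below all AKRxFVB F1 arrays, against 12.6% of all tested probe sets. These were 3 of Ets1 and 2 of Il7r. A fold of 2 or more in that direction was seen in 5 of the 13, 2 each of Ets1 and Satb1 and 1 of Il7r, against 2.35% of all tested probe sets. Not all of these held with 1 array left out. The Il7r difference of -1.00 became -0.76 without DBAxFVB F1 array 3. Those of Satb1 became -0.67 and -0.96 without AKRxFVB F1 array 2. The smallest of the Ets1 pair were -1.32 and -1.34. Since probe sets of 1 gene share a target, the same was counted by gene, with the probe set of highest mean for each. The member genes then had a median difference of -0.86, against 0.05 over 12421 tested genes, 4 of 6 were lower at an unadjusted p below 0.05 (6.4% of all genes), and 2 of 6 did not overlap (11.9%). The members were chosen with earlier results on lymphocyte genes in these arrays known, so the counts describe them and test nothing.

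**Figure D2:**
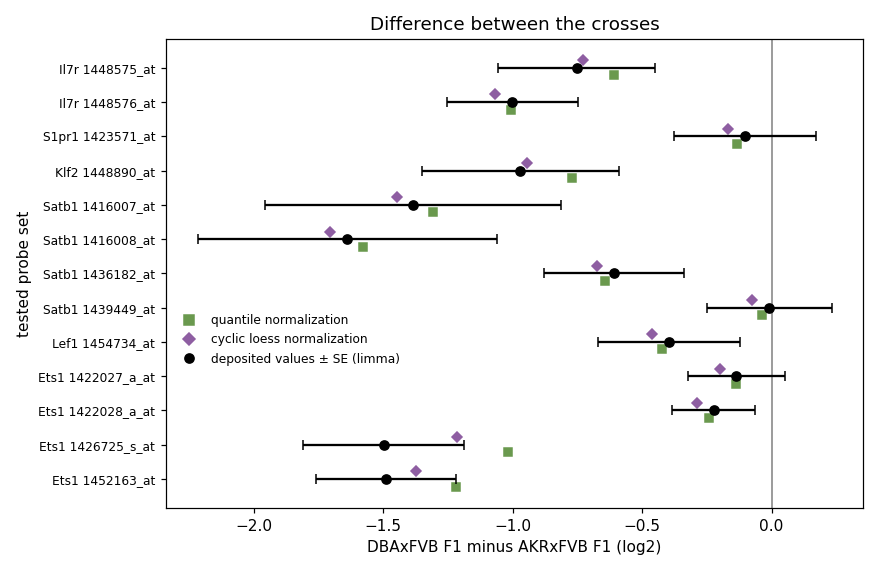
Difference between the crosses on the log2 scale for the 13 tested member probe sets; black points and bars are the limma estimate and its SE on the deposited values, and squares and diamonds the estimate after quantile and cyclic loess normalization. Ets1 1426725_s_at moved from -1.50 to -1.02 and -1.21 in these 2 settings, and Il7r 1448576_at from -1.00 to -1.01 and -1.07.

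Bright probe sets as a whole read lower in DBAxFVB F1, so the members were set beside probe sets of like level. Tested probe sets with a mean of 6 to 8 had a median difference of -0.44 and a 10th percentile of -1.11, and those of 5 to 6 had a median of -0.12 and a 10th percentile of -0.98. The Ets1 probe sets 1426725_s_at and 1452163_at, with means of 6.87 and 5.62, lay below those 10th percentiles. Probe sets with a mean of 4 to 5 had a median of 0.03 and a 10th percentile of -0.66, and Klf2 and Il7r 1448575_at, with means of 4.97 and 4.96, lay below it. Of those with a mean of 3 to 4 the median was 0.07 and the 10th percentile -0.39. Il7r 1448576_at, Lef1 1454734_at and 3 Satb1 probe sets were lower than that, and S1pr1, Satb1 1439449_at and the remaining Ets1 pair were not. After normalizing the arrays to a shared distribution (quantile) the difference of 1452163_at was -1.22 and that of Klf2 was -0.77.

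**Figure D3:**
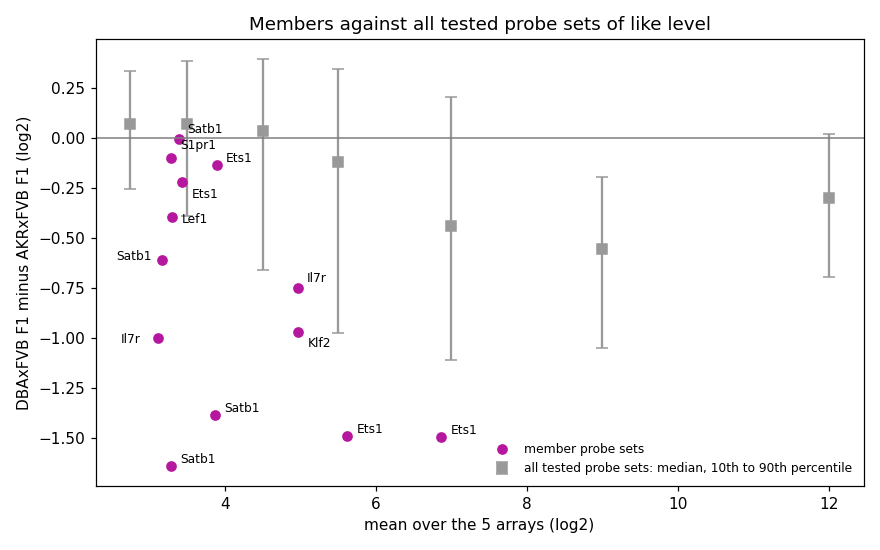
Difference between the crosses (log2) against the mean over the 5 arrays (log2). Grey squares and bars are the median and the 10th to 90th percentiles of all tested probe sets in a range of levels, and purple points the 13 tested member probe sets. Ets1 at -1.49 and -1.50 lies under the grey bars of its levels, whose 10th percentiles are -0.98 and -1.11.

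The other genes of these pathways were read from lists of known partners, relatives and pathway genes, each gene by its tested probe set of highest mean. No member of any list passed the test over all genes. Of all 12421 tested genes, 41.7% were lower, 6.4% were lower and 3.61% higher at an unadjusted p below 0.05, and 11.9% and 17% did not overlap in the lower and the higher direction.

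Homing genes of naive lymphocytes were lower in 9 of 10 tested cases, with a median of -0.41 (-0.22 without AKRxFVB F1 array 1), and 3 had an unadjusted p below 0.05, all lower. Bach2, a repressor that keeps lymphocytes undifferentiated, read 4.80 and 3.43 against 2.45, 3.08 and 2.69, a difference of -1.38 ± 0.38 (limma adjusted p = 0.269). Cxcr4, the receptor for the chemokine CXCL12, differed by -0.92 ± 0.27, and Selplg, the selectin ligand of leukocytes, by -0.69 ± 0.27. These were the 3 of 10 whose crosses did not overlap. The size of the Bach2 difference depended on AKRxFVB F1 array 1, without which it was -0.69, and that of Selplg on AKRxFVB F1 array 2, without which it was -0.38. Cd69, which holds S1pr1 inside the cell, lay below the filter.

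In the sphingosine 1-phosphate list, 8 of 13 tested genes were lower and the median was -0.27, ranging from -0.41 (DBAxFVB F1 array 1 left out) to -0.17 (AKRxFVB F1 array 1 left out). At an unadjusted p below 0.05, 3 were lower and 1 was higher. Gnai3, an inhibitory G protein subunit through which such receptors signal, differed by -0.76 ± 0.18. Sgpp1, a phosphatase of the lipid ligand, differed by -0.59 ± 0.17 and Rac2, a GTPase of leukocyte migration, by -1.06 ± 0.35. The value of Rac2 was -0.63 without AKRxFVB F1 array 1. All 3 had crosses that did not overlap, with a limma adjusted p from 0.226 to 0.374. Over the whole list, 5 genes did not overlap in the lower direction and 2 in the higher. The higher ones were the receptor gene S1pr3 at 0.45 ± 0.18 and Spns2 at 0.38 ± 0.19. Spns2 read 2.51 and 2.09 in AKRxFVB F1, neither above the filter of 2.51, and 2.52, 2.95 and 2.57 in DBAxFVB F1. Its mean of 2.53 thus passed only through the DBAxFVB F1 arrays, and the size of its difference is uncertain.

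Genes that carry the interleukin 7 signal were lower in 7 of 11 tested cases, with a median of -0.26 and 3 lower at an unadjusted p below 0.05. Jak1, the kinase bound to the Il7r chain, read 6.51 and 7.04 against 6.34, 5.90 and 5.35, a difference of -0.91 ± 0.37 (limma adjusted p = 0.455). Like Il7r, it was highest on AKRxFVB F1 array 2 and lowest on DBAxFVB F1 array 3. Mcl1, a survival protein of the BCL2 family, differed by -1.41 ± 0.42 and Ptpn2, a phosphatase that restrains JAK kinases, by -1.04 ± 0.30. Without AKRxFVB F1 array 1 those 2 values were -0.84 and -0.58. The shared receptor chain gene Il2rg had no probe set under its symbol here, and Il7 lay below the filter.

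The list around Lef1 and Tcf7 holds co-factors, other genes of the beta-catenin pathway and relatives of the 2 factors. It was split, with 6 of 13 tested genes lower. Its median of 0.015 kept its sign in 10 of 14 alternatives (-0.14 to 0.09). Cbfb, a subunit of core binding factor that was placed in this list as a T cell co-factor, read 6.49 and 6.34 against 4.84, 4.74 and 4.72. Its difference was -1.65 ± 0.24, with a limma adjusted p of 0.131. Ctnnb1, which encodes beta-catenin, differed by -1.47 ± 0.30 and the co-repressor gene Tle4 by -0.81 ± 0.21. The value of Tle4 was -0.47 without AKRxFVB F1 array 1. Tle4 read 3.59 and 2.91 in AKRxFVB F1 and 2.42, 2.48 and 2.42 in DBAxFVB F1. Its DBAxFVB F1 values all lay below 2.51, the filter on the mean. Its mean of 2.76 thus passed only through the AKRxFVB F1 arrays, and the size of its difference is uncertain. At an unadjusted p below 0.05, 3 genes were lower, Tle4 among them, and 1 was higher.

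The relatives of Ets1 and Klf2 did not share their direction as families. Of 14 tested ETS genes 8 were lower, with a median of -0.01 (-0.07 to 0.12 over 14 alternatives, 10 of the same sign) and, at an unadjusted p below 0.05, 3 lower and 1 higher. Elf1, an ETS factor of lymphocytes, read 4.33 and 4.03 against 2.98, 2.89 and 2.59, a difference of -1.36 ± 0.19 (limma adjusted p = 0.131). Spib, an ETS factor of B cells and plasmacytoid dendritic cells, differed by -1.78 ± 0.45, and Etv6 in the other direction by 0.53 ± 0.18. Of 9 tested Krüppel-like genes other than Klf2, 3 were lower and 6 higher, with a median of 0.17 and none at an unadjusted p below 0.05 in either direction. The values nearest to it were those of Klf6 at 0.38 ± 0.19, Klf5 at 0.37 ± 0.19 and Klf12 at 0.60 ± 0.40. Klf12 was 0.16 without DBAxFVB F1 array 3, and Klf5 was 0.23 without DBAxFVB F1 array 2.

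Transcription factors of the T lineage were also split, with 8 of 15 lower and a median of -0.04 (-0.11 to 0.05 over 14 alternatives, 10 of the same sign). Ikzf3, which encodes Aiolos of B and T cells, read 5.01 and 4.12 against 3.03, 2.49 and 3.47, a difference of -1.57 ± 0.35 (limma adjusted p = 0.195). Ikzf1, which encodes Ikaros, differed by -0.96 ± 0.27, and Runx1, the partner of Cbfb, by 0.93 ± 0.32. At an unadjusted p below 0.05, 3 genes of this list were lower and 1 was higher.

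Among markers of the cells that blood can hold, those of T and B cells were detected with different patterns over the arrays. The T cell list had 11 of 16 tested genes lower, a median of -0.08 and 3 lower at an unadjusted p below 0.05, namely Cd2, Cd3d and Thy1. Its summed log2 level was 67.0 and 68.7 in AKRxFVB F1 and ran from 62.1 to 66.3 in DBAxFVB F1. Of the defining genes of the T cell receptor complex and its co-receptors, Cd3d read 5.51 and 5.68 against 4.94, 4.09 and 3.61, a difference of -1.38 ± 0.38, while Cd3e differed by -0.31 ± 0.23, Cd3g by -0.38 ± 0.25, Cd4 by -0.0096 ± 0.21, Cd8a by 0.20 ± 0.29 and Cd8b1 by -0.08 ± 0.14. The direction of Cd4 changed under 5 alternatives. With 1 array left out, Cd3g ranged from -0.63 to -0.24, Cd8a from 0.017 to 0.39 and Cd8b1 from -0.13 to -0.032. The B cell list had 11 of 12 lower and a median of -0.48 (-0.09 without AKRxFVB F1 array 1). Its summed levels were 56.8 and 47.4 against 42.4 to 47.3, so AKRxFVB F1 array 1 stood above all others. Ebf1, counted among the lower genes, read 4.40 and 2.76 in AKRxFVB F1 and 2.46, 2.34 and 2.39 in DBAxFVB F1. Its DBAxFVB F1 values all lay below the filter on the mean. Ebf1 thus passed only through the AKRxFVB F1 arrays, and the size of its difference is uncertain. Ms4a1, which encodes the B cell antigen CD20, read 8.03 and 6.97 against 5.29, 5.16 and 6.19, and Cd79a, a B cell receptor chain, differed by -0.63 ± 0.41, or -0.14 without AKRxFVB F1 array 1. Ncr1, the defining gene of natural killer cells, lay below the filter at 2.14 to 2.63. The part of T, B and natural killer cells in the differences of the members was not tested.

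Lists of other cells differed by array too, and some of them in the members' direction. Summed platelet marker levels were 73.6 and 86.4 in AKRxFVB F1 and ran from 65.7 to 81.8 in DBAxFVB F1, with AKRxFVB F1 array 2 the highest and DBAxFVB F1 array 3 the lowest, as for Il7r and Satb1 1416007_at. Of 11 tested platelet genes 10 were lower, with a median of -0.44 that became 0.23 when AKRxFVB F1 array 2 was left out and 0.07 when DBAxFVB F1 array 3 was. Monocyte genes were lower in 8 of 11 tested cases, with a median of -0.43 (-0.27 without DBAxFVB F1 array 3), and 4 of the 11 did not overlap in that direction. Relative to each gene's mean, the monocyte list had medians of 0.35 and 0.18 in AKRxFVB F1 and of -0.38, -0.30 and 0.13 in DBAxFVB F1. Summed levels of neutrophil genes were 39.5 and 36.3 against 36.7 to 40.4, those of monocyte genes 65.3 and 62.2 against 56.9 to 62.4, and those of red cell precursors 60.0 and 61.7 against 54.9 to 63.7. Cardiac muscle genes, which a cardiac puncture can bring, summed to 15.8 and 16.7 against 17.2 to 20.0, and endothelial genes to 19.5 and 19.7 against 19.1 to 20.0. Natural killer cell genes, of which 5 of 12 were tested, summed to 14.1 and 17.0 against 14.6 to 15.1. Of these 7 lists the cardiac one alone was higher on every DBAxFVB F1 array in its sum. That sum held the 5 tested genes of 10 listed, and 1 of the 5 was lower on average. Myl2, also among the 5, read 2.41 and 2.36 in AKRxFVB F1 and 3.93, 2.83 and 2.74 in DBAxFVB F1. Its AKRxFVB F1 values lay below the filter on the mean. Myl2 thus passed only through the DBAxFVB F1 arrays, and the order of the cardiac sums is uncertain. The part of the cells of these 7 lists in the members' values was not tested. Relative to each gene's mean over the arrays, the member genes had a median of 0.31 and 0.46 in AKRxFVB F1 and of 0.04, -0.57 and -0.54 in DBAxFVB F1. The T cell list had 0.06 and 0.13 against 0.14, -0.11 and -0.13. DBAxFVB F1 array 1 thus sat nearer to the AKRxFVB F1 arrays than the other DBAxFVB F1 arrays did on both lists.

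**Figure D4:**
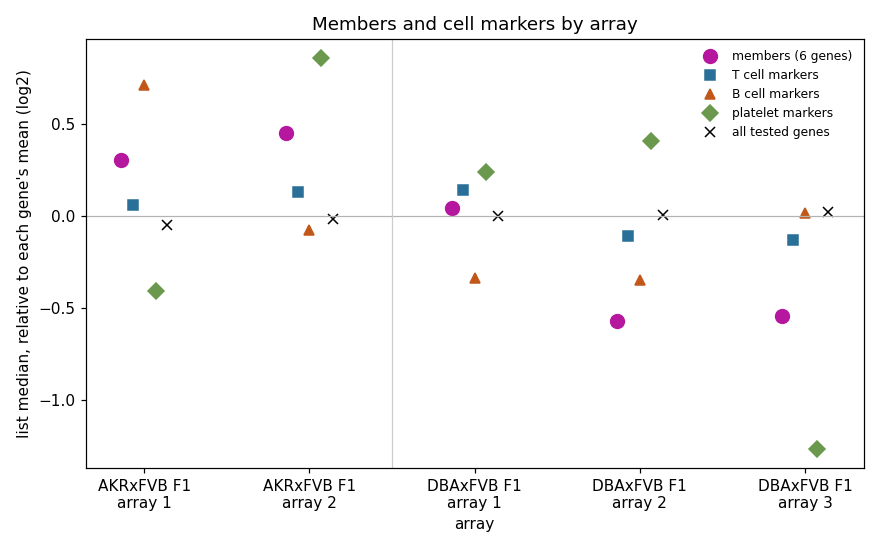
Median over the genes of a list of the log2 value relative to each gene's mean over the 5 arrays, by array, for the 6 member genes, markers of T cells, B cells and platelets, and all tested genes. Member genes are at 0.31 and 0.46 in AKRxFVB F1 and at -0.57 and -0.54 on DBAxFVB F1 arrays 2 and 3; B cell markers peak on AKRxFVB F1 array 1 at 0.71 and platelet markers are lowest on DBAxFVB F1 array 3 at -1.27.

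To see which genes followed the members across arrays, each member's probe set of highest mean was compared with 18710 probe sets of other genes, by the root mean square difference over the 5 arrays between log2 values centred on their own means. The nearest to Satb1 1416007_at were Trbv1, a variable segment of the T cell receptor beta chain, at 0.19, and Bcl11b, a transcription factor that sets T cell identity, at 0.20, where the median over all probe sets was 1.03. Trbv1 read 5.07 and 6.05 against 5.46, 4.02 and 3.82, and Bcl11b read 4.95 and 6.31 against 5.17, 4.09 and 3.15. Like Satb1, both were highest on AKRxFVB F1 array 2 and lowest on DBAxFVB F1 arrays 2 and 3. For Ets1 1426725_s_at the nearest were Btg1 and Creb1 (0.05 each, median 0.80), for Klf2 they were Stat3 and Atp5g2 (0.07 and 0.08, median 0.69), and for Il7r 1448575_at they were Ago2 and Nucks1 (0.07 and 0.08, median 0.51). B3gnt2 and Oplah were nearest to S1pr1 (0.07 each, median 0.38), and Man2c1 and Tubb2b to Lef1 1454734_at (0.08 each, median 0.44). With 5 arrays and so many probe sets, close matches are many, and these values are a description.

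**Figure D5:**
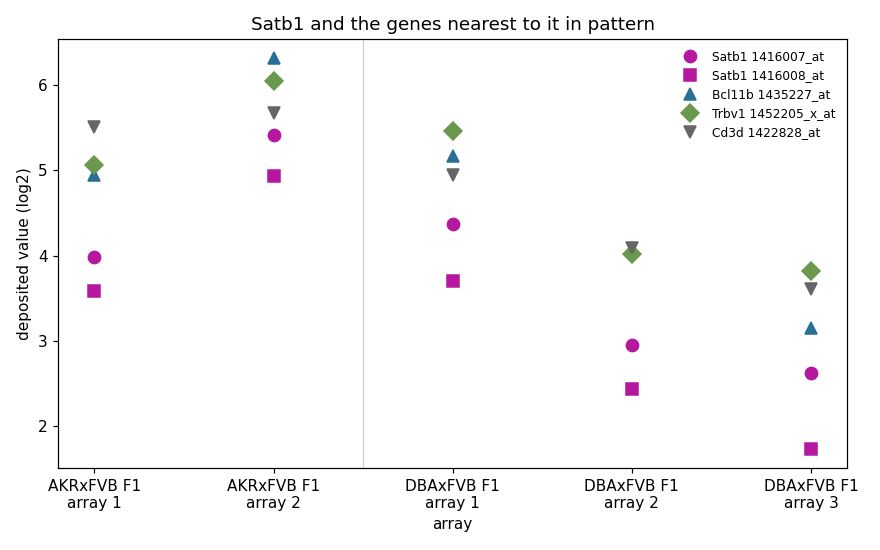
The log2 value on each array of the Satb1 probe sets 1416007_at and 1416008_at, of Bcl11b and Trbv1, the nearest to the first in pattern, and of Cd3d. The Satb1 probe sets, Bcl11b and Trbv1 are highest on AKRxFVB F1 array 2, where Satb1 1416007_at reads 5.42, and lowest on DBAxFVB F1 array 3, where it reads 2.63.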

How the data were processed

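For each of 5 arrays of whole-blood RNA, the authors deposited 1 value per probe set. The scale was taken as log2 from the range of these values, 1.29 to 14.8. Per the labels' protocols, RNA was extracted with Trizol, amplified with a 2-cycle kit and labelled with biotin. MAS5 and RMA are named in the submitters' processing notes, and which of them gave the values is not given in the sources used here, so background correction and normalization between arrays are unknown and folds of dim probe sets may be compressed.

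Samples were grouped by their titles. Of 45101 probe sets, 64 array controls were left out, and 34958 had 1 gene symbol, 932 several and 9211 none. Probe sets with a mean at or above the median, 2.51, were tested (22519) with limma 3.58.1 in R 4.3.3 (lmFit, eBayes with a variance trend), with no covariate beside the cross and 3 residual degrees of freedom. Tests were two-sided, with a Benjamini-Hochberg adjusted p of 0.05 as threshold. The p-values measure only how far these arrays vary, which could be technical variation, and an exact permutation test of 2 arrays against 3 cannot go below 0.1. Tested on simulated data of this comparison (22519 probe sets, 5 runs), limma recovered 71.8% of probe sets changed by 2 log2 units and 23.4% of those changed by 1. The members and lists were chosen with earlier results of these data known. Text names every member, the 3 pathway genes per list with the smallest p, defining markers, and the 2 genes nearest to each member in pattern. Cd2, Thy1, Ebf1, Myl2, S1pr3, Spns2 and the genes mentioned as missing or below the filter were added after seeing the data. Python 3.11.15 with pandas 2.3.3 and matplotlib 3.10.9 prepared tables and plots. Promoter windows are from RefSeq, with entries for 5 of the 7 genes.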

Additional observations from a re-analysis of the deposited data

How the results depend on the processing

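The count of called probe sets was 0, and 0 among the members, under quantile normalization, median centring, cyclic loess normalization, no variance trend, array weights, robust estimation, a stricter filter (the 75th percentile) or none, an adjusted p below 0.1, and with each array left out (0 to 0). At an unadjusted p below 0.05 the counts were 2337 and 7. The median difference of the member genes kept its sign in all 16 alternatives, and ranged from -0.89 to -0.59 with 1 array left out. Leaving out an AKRxFVB F1 array leaves 1, which is assumed to vary like the other cross. With 1 array left out, S1pr1 ranged from -0.39 to 0.19, changing direction when AKRxFVB F1 array 1 (0.19) or DBAxFVB F1 array 2 (0.12) was dropped. Satb1 1439449_at did so with array weights (0.093), the replicate block (0.19), and on dropping AKRxFVB F1 array 2 (0.14) or DBAxFVB F1 array 3 (0.19), with a range of -0.19 to 0.19 over the arrays left out. Cd4 did so with array weights (0.021), the replicate block (0.064), and on dropping AKRxFVB F1 array 2 (0.051), DBAxFVB F1 array 2 (0.055) or DBAxFVB F1 array 3 (0.064), with a range of -0.15 to 0.064. The cause was not tested. The arrays share replicate numbers, which were not taken as pairs. The deviations of same-numbered arrays from their group means correlated at -0.26 for number 1 and 0.17 for number 2. With 2 AKRxFVB F1 arrays, each deviation is the other with its sign turned, so these values cannot decide on pairing. With the replicate block the median difference of the member genes was -0.79, 0 probe sets were called, and, since number 3 has 1 array, that array no longer bears on the estimate. The lower side made up 65.4% of probe sets at an unadjusted p below 0.05, 78.9% with cyclic loess and 77.0% with median centring, 75.5% with the stricter filter, 59.7% with none, and 59.5% to 74.3% with 1 array left out. The alternative planned for linear values was not run, since the values are log2.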

Other observations

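The position of a probe set among all non-control probe sets of its own array does not depend on the scaling between arrays. Ets1 1452163_at stood at the 97.8 and 97.3 percentiles of the AKRxFVB F1 arrays and at 95.4, 94.2 and 94.6 of the DBAxFVB F1 arrays, and 1426725_s_at at 98.8 and 98.5 against 97.8, 97.5 and 97.9. The crosses thus did not overlap by rank either. Il7r 1448576_at went from 84.0 and 85.9 to 63.0, 73.7 and 32.2, the lowest on DBAxFVB F1 array 3. Satb1 1416008_at covered most of the scale, at 83.5 and 93.8 in AKRxFVB F1 and at 84.9, 44.6 and 4.75 in DBAxFVB F1, while the Satb1 probe set 1439449_at stayed between 68.8 and 85.4. On DBAxFVB F1 array 3, where 1416008_at was near the bottom, 1416007_at of the same source accession stood at 54.2 and 1436182_at at 69.4, so the Satb1 probe sets did not share a position. The ranks were computed after the values were seen and carry no test.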
